A study of Mus musculus with 9 samples.

Results

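Motile cilia are the beating, hair-like projections of multiciliated cells, and 47 genes that build or run them were followed in mouse ovary RNA. The genes were listed by name and chosen with the group values of this series known, so every difference between groups given here is a description of the members and carries no test. All 47 were found among the 33450 rows of the deposited gene table, and 44 of them reached at least 1 FPKM (sequenced fragments scaled to transcript length and to the mapped fragments of the library) in 1 or more groups. Hydin lay just inside that limit, at 1.12 FPKM in the lean group. Outside it were Dnah11 and Spag17, whose highest values were 0.727 and 0.636 FPKM, and Mcidas.

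Ovaries came from 9 mice of the inbred strain C57BL/6J, aged 15 weeks. The obese group (HFOB, n = 3) and the lean group (HFLN, n = 3) had both eaten a diet with 60% fat for 10 weeks, and the control group (n = 3) had eaten standard chow with 16% fat. HFOB and HFLN mice had the same diet and were told apart by whether they became obese on it, so obesity was not assigned. The table gives 1 FPKM per group with a lower and an upper bound, and values of single mice were not analysed here; each value below stands for 3 mice, and numbers in brackets after a value are its deposited interval.

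A motile cilium is a ring of doublet microtubules around a central pair. Dynein arms fixed to the doublets slide them, radial spokes relay signals from the central pair, and nexin links turn sliding into bending. In the female reproductive tract such cells line the oviduct, where they move the egg, and they are switched on by a transcription cascade that ends in FOXJ1 and the RFX factors. The labels name the tissue only as ovary. Its defining genes were present in all 3 groups: the granulosa gene Amh stood at 187 FPKM in HFOB, 176 in HFLN and 181 in control, and the oocyte gene Zp3 at 54.4 in HFOB, 52.96 in HFLN and 52.2 in control. Ovgp1, the oviduct glycoprotein of secretory cells, was abundant in the same libraries, at 307 FPKM in HFOB, 432 in HFLN and 369 in control.

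Most motile cilia genes had their lowest value in obese mice, their highest in lean mice on the same diet and a value in between on chow. Summed over the 47 genes, expression was 337 FPKM in HFOB, 645 in HFLN and 436 in control. Foxj1, the master regulator of motile cilia, Tmem212, a membrane protein gene used as a ciliated-cell marker, and Dynlrb2, a dynein light chain, all had less than 50% of the HFLN level in HFOB, with ratios of 0.467, 0.370 and 0.452. In whole-ovary RNA, fewer ciliated cells and less RNA per ciliated cell cannot be told apart.

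Against HFLN, 46 of the 47 genes had a lower FPKM in HFOB, where 53.5% of all 13675 protein-coding rows of at least 1 FPKM did. The median log2 fold was -0.80 over the 47, beside -0.01 over all protein-coding rows. These are the values the members were chosen with, so nothing further is read from the counts. Folds are differences on the log2(FPKM + 1) scale, which understates those of low genes; as a plain ratio the median of the 47 was 0.481 of the HFLN level, with the middle 50% between 0.422 and 0.538. On the log2 scale 13 members were at least 2-fold lower in HFOB and none was 2-fold higher, where 0.314% of all rows were 2-fold lower and 0.11% higher. No member was both 2-fold lower and separated by intervals that did not overlap, as 0.0219% of all rows were in each direction. With a looser rule added after the values were seen, that each group's FPKM lay outside the other group's interval, 6 members stood apart in HFOB: Foxj1, Dynlrb2, Hydin, Sntn, Tmem212 and Sec14l3, where 0.256% of all rows did. Hydin reached 1 FPKM in HFLN alone, and with the limit set on the mean of the 3 groups the count was 5. No member stood apart the other way, where 0.0585% did.

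**Figure D1:**
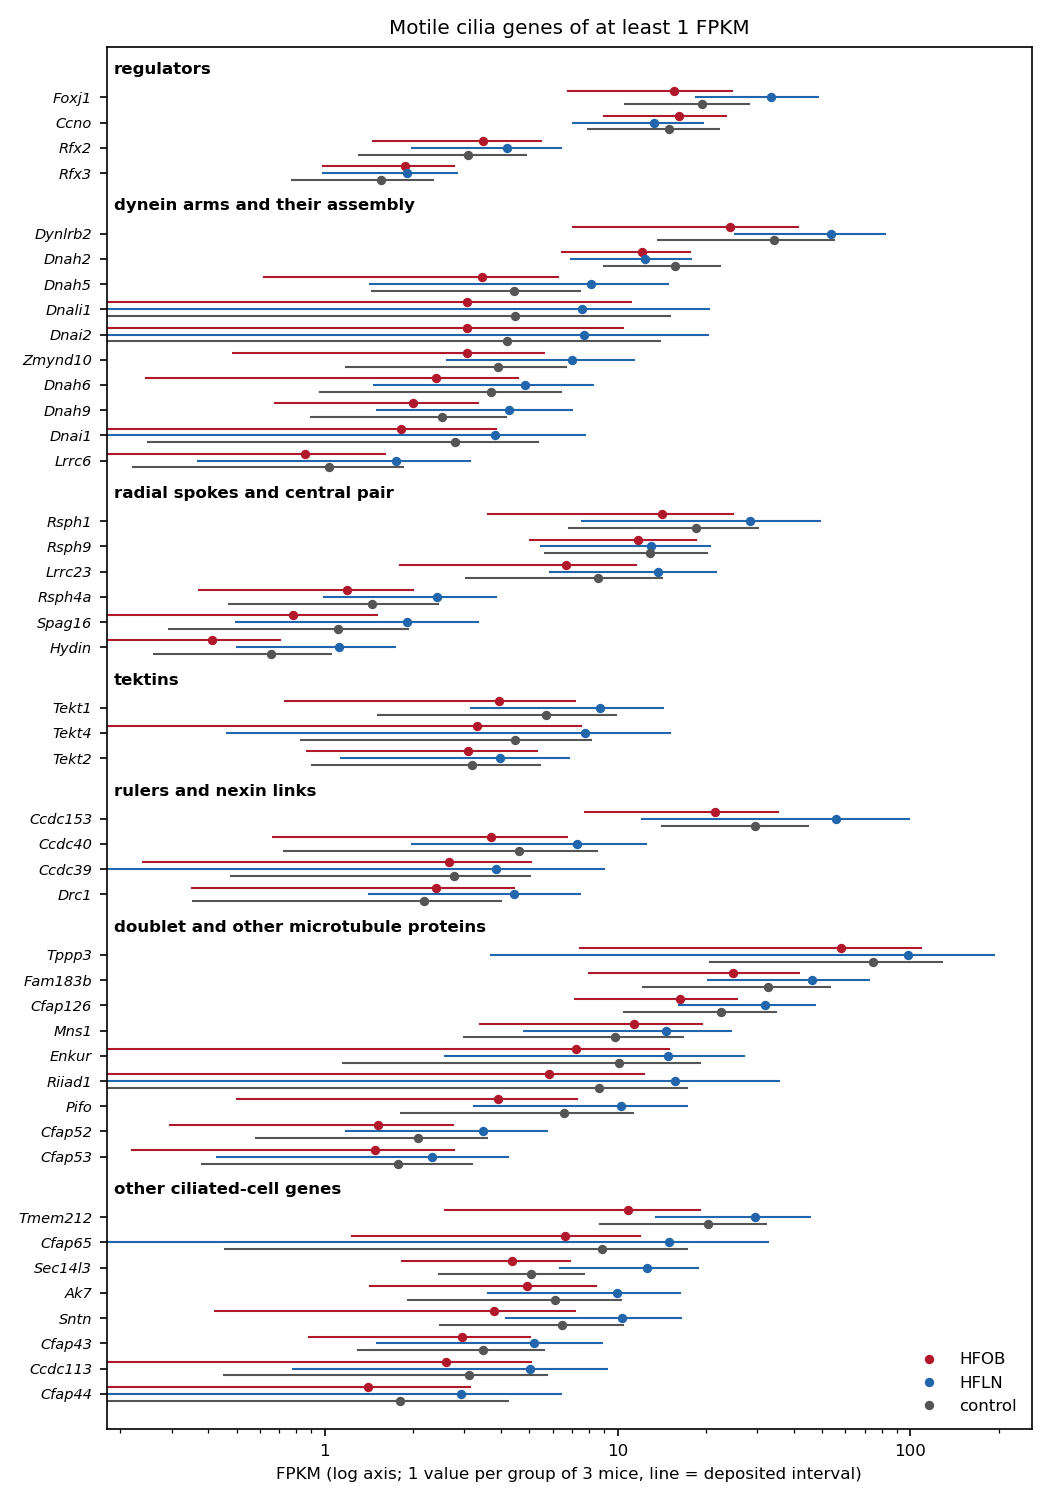
FPKM of the 44 motile cilia genes of at least 1 FPKM, grouped by role, on a log axis; dots are the values of HFOB, HFLN and control (3 mice each) and lines the deposited intervals, cut at the left edge where they reach 0. HFLN is the highest dot for all genes drawn except Ccno and Dnah2, and the intervals of the groups overlap for all 44.

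The regulators differed among themselves. Foxj1 (chr11:116330704-116335499) stood at 15.6 FPKM in HFOB (6.78 to 24.5), 33.5 in HFLN (18.5 to 48.5) and 19.4 in control (10.6 to 28.1), with HFLN above the other groups and intervals that overlapped. Its log2 fold was -1.05 in HFOB against HFLN. Rfx2 and Rfx3, transcription factors that bind the X-box of cilia genes and also act outside multiciliated cells, differed less. Rfx2 stood at 3.47 FPKM in HFOB (1.46 to 5.48), 4.19 in HFLN (1.98 to 6.40) and 3.09 in control (1.3 to 4.88). Rfx3 stood at 1.87 in HFOB, 1.91 in HFLN and 1.56 in control, a log2 fold of -0.02 between HFOB and HFLN.

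Mcidas and Ccno lie side by side on chromosome 13 and both drive the centriole amplification that precedes multiciliation. Ccno (chr13:112987802-112990778) was the 1 member higher in HFOB than in HFLN, at 16.2 FPKM (8.98 to 23.5) in HFOB, 13.3 (7.06 to 19.6) in HFLN and 15.0 (7.93 to 22.1) in control, and the intervals overlapped. Cyclin O, its product, is also known from mouse oocytes. Mcidas (chr13:112993581-113000394) was close to absent, at 0.0111 FPKM in HFOB (0 to 0.0453), 0.0652 in HFLN (0 to 0.162) and 0.117 in control (0 to 0.262), and no fold is described for it alone. It counts among the 47; over the 44 members above the limit, 43 were lower in HFOB than in HFLN and the median log2 fold was -0.82.

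Some promoters of the members carry the binding letters of these factors, a feature the choice of members did not use. RefSeq promoter windows of GRCm38.p6, the assembly behind mm10, run from 250 bases before to 50 after an annotated start and were found for 39 of the 47 genes. The X-box bound by RFX factors is an inverted repeat, searched on either strand as GTTNCC, then 3 or 2 bases of any kind, then GNAAC. It occurred in 12 of the 39 members, 30.8%, and in 1.60% of 17491 protein-coding genes with a window. The 12 matches are shown with flanking bases, 5′ to 3′ on the gene strand, to let the repeat be compared; capitals mark the match, and a match on the other strand reads GTTNC, the gap, then GGNAAC.
Dynlrb2: cctgcctgGTTGCCTAGCAACgggggaag
Dnai2: cggccaggGTTGCTAGGCAACtggtaaac
Dnai1: gcctgtcgGTTGCTGGGTAACcgcgtcag
Dnah9: ttccaccaGTTTCCCAGCAACaacgacgc
Fam183b: gaacatccGTTGCCTGGAAACtgtagaag
Tekt2: agggggcgGTTGCTCGGCAACcagagccg
Pifo: gcggttccGTTCCCTTGGCAACgtagtaca
Tekt4: tatacaatGTTCCTTAGGCAACcaggaacc
Enkur: tagcaactGTTTCCTTAGCAACcacgtggt
Hydin: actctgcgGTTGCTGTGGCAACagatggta
Spag16: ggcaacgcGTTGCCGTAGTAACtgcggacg
Cfap44: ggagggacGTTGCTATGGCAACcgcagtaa
In 9 of the 12 the match began between 12 and 51 bases upstream of the annotated start, in Tekt4 it began at the start itself, and in Dnah9 and Spag16 it lay 82 and 103 bases upstream. The single arm GTTGCC, which overlaps the longer motif, was present in 22 of 39 members, 56.4%, against 14.4% of protein-coding genes. It was also present in 46.4% of the further motile cilia genes described below and in 47.4% of intraflagellar transport genes. Forkhead letters, searched as TGTTTAC or TGTTTG on either strand, were present in 13 members, 33.3%, against 20.7% of protein-coding genes and 18.8% of the further motile cilia genes. Among members above 1 FPKM with a window, the 12 with the spaced X-box had a median log2 fold of -0.84 in HFOB against HFLN and the 24 without it -0.82. A match is a description of the letters, not of a factor bound there.

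Whole windows are shown for Dynlrb2 (chr8:116504765-116505064, plus strand) and Pifo (chr3:106001448-106001747, minus strand). Both hold the spaced X-box and had among the widest differences. Also shown is Tmem212 (chr3:27896319-27896618, minus strand), which had the lowest log2 fold of the members. Its window lacks the spaced X-box and the single arm counted above, and holds only a looser arm with a free base, at 2 places. The looser arm occurred in 35 of 39 members and in 49.1% of protein-coding genes. The window of Sec14l3, with the next-lowest log2 fold, holds no looser arm and is not shown. Capitals mark each GTTNCC or its complement GGNAAC.
Dynlrb2: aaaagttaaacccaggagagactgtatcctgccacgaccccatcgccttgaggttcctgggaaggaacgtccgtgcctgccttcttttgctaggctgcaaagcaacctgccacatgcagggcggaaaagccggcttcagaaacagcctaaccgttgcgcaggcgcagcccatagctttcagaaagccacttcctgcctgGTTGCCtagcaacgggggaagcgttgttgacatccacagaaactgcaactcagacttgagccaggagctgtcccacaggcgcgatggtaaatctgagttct
Pifo: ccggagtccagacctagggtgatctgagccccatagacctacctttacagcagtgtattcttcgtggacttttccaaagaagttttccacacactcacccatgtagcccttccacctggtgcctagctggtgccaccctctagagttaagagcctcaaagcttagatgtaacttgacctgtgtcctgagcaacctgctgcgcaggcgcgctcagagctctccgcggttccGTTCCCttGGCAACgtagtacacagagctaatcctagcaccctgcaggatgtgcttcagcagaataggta
Tmem212: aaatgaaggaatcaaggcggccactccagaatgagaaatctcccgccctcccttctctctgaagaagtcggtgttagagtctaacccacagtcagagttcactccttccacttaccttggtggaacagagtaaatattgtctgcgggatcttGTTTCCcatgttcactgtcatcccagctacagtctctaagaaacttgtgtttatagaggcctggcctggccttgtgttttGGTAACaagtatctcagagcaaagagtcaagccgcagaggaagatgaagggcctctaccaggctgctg

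**Figure D2:**
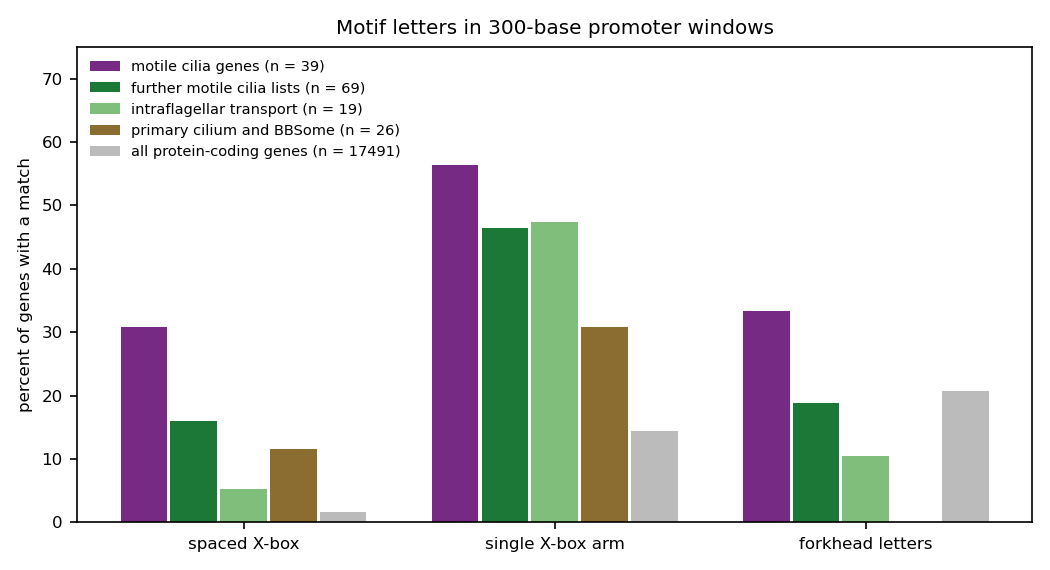
Percent of genes whose promoter window holds a spaced X-box, a single X-box arm or forkhead letters, for the motile cilia genes, 3 comparison sets and all protein-coding genes (n in the legend). The spaced X-box was found in 30.8% of motile cilia genes, 15.9% of further motile cilia genes, 5.26% of intraflagellar transport genes, 11.5% of primary cilium genes and 1.60% of all protein-coding genes.

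All 11 genes of the dynein arms and their assembly were lower in HFOB than in HFLN, where 53.5% of all protein-coding rows were. The 10 above 1 FPKM had a median ratio of 0.462. The outer-arm heavy chain gene Dnah5 stood at 3.44 FPKM in HFOB (0.621 to 6.27), 8.13 in HFLN (1.42 to 14.8) and 4.44 in control (1.45 to 7.42). Dnah9 and Dnah11, heavy chains of the same arm, stood at 2.01 and 0.305 FPKM in HFOB, 4.25 and 0.727 in HFLN, and 2.52 and 0.534 in control. All 3 had their lowest value in HFOB and their highest in HFLN. The outer-arm intermediate chain genes Dnai1 and Dnai2 had ratios of 0.477 and 0.4, and the lower bound of both was 0 in HFOB and in HFLN. Dynlrb2, the most abundant of the class, stood at 24.2 FPKM in HFOB (7.03 to 41.3), 53.5 in HFLN (25.2 to 81.8) and 34.2 in control (13.8 to 54.7), and the HFOB and HFLN values each lay outside the other interval.

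Inner-arm genes were less uniform. Dnah6 stood at 2.40 FPKM in HFOB, 4.85 in HFLN and 3.68 in control, and the light chain gene Dnali1 at 3.07 in HFOB, 7.54 in HFLN and 4.45 in control. Dnah2, also an inner-arm heavy chain, was the exception of the class, at 12.1 FPKM in HFOB (6.48 to 17.7), 12.4 in HFLN (6.94 to 17.9) and 15.7 in control (9.00 to 22.4). It had the highest FPKM of the 5 heavy chain members in every group and differed by a log2 fold of -0.03 between HFOB and HFLN. The cytoplasmic assembly factors Zmynd10 and Lrrc6, which fold the arms before transport, had ratios of 0.435 and 0.488.

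All 7 radial spoke and central pair genes had a lower FPKM in HFOB than in HFLN, where 53.5% of all protein-coding rows did. Ratios of the 7 ran from 0.368 to 0.901, and the lowest is that of Hydin, which reached 1 FPKM in HFLN alone. Rsph1, a spoke-head gene, stood at 14.2 FPKM in HFOB (3.61 to 24.8), 28.4 in HFLN (7.53 to 49.2) and 18.5 in control (6.83 to 30.1). Rsph4a, of the same head, stood at 1.19 in HFOB, 2.41 in HFLN and 1.45 in control, whereas Rsph9, the third spoke-head gene, hardly differed at 11.7 FPKM in HFOB (5.02 to 18.5), 13.0 in HFLN (5.47 to 20.6) and 12.9 in control (5.66 to 20.2). Lrrc23, another spoke protein gene, had a ratio of 0.487. Of the central pair genes, Hydin stood at 0.412 FPKM in HFOB (0.122 to 0.702), 1.12 in HFLN (0.503 to 1.74) and 0.656 in control (0.262 to 1.05), Spag16 at 0.781 in HFOB, 1.92 in HFLN and 1.11 in control, and Spag17 at 0.294 in HFOB, 0.636 in HFLN and 0.368 in control. Hydin and Spag16 were lowest in HFOB and highest in HFLN, at levels where the log2 scale used shrinks the difference.

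Tektins are filaments inside the doublet wall. Tekt1 stood at 3.94 FPKM in HFOB (0.730 to 7.15), 8.70 in HFLN (3.15 to 14.2) and 5.69 in control (1.52 to 9.86), and Tekt4 at 3.31 in HFOB (0 to 7.52), 7.76 in HFLN (0.462 to 15.1) and 4.48 in control (0.831 to 8.12). Tekt2 stood at 3.09 FPKM in HFOB (0.867 to 5.31), 3.97 in HFLN (1.14 to 6.80) and 3.18 in control (0.904 to 5.45). The ratio of HFOB to HFLN was thus 0.453 for Tekt1, 0.427 for Tekt4 and 0.778 for Tekt2. In GENCODE, 20.8% of the exon bases of Tekt2 lie on exons of a gene on the other strand; neither Tekt1 nor Tekt4 shares exon bases in this way.

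Ccdc39 and Ccdc40 form the molecular ruler that spaces the arms, and Drc1 and Ccdc153 belong to the nexin link. Ccdc153 was among the most abundant members, at 21.5 FPKM in HFOB (7.77 to 35.3), 55.6 in HFLN (12.1 to 99.0) and 29.4 in control (14.2 to 44.6). Ccdc40 stood at 3.69 in HFOB, 7.25 in HFLN and 4.60 in control. Ccdc39, its partner, stood at 2.66 FPKM in HFOB (0.239 to 5.08), 3.85 in HFLN (0 to 8.95) and 2.76 in control (0.479 to 5.03), with 16.9% of its exon bases shared with Ttc14 on the other strand. Drc1 stood at 2.39 in HFOB, 4.44 in HFLN and 2.18 in control.

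All 9 genes of doublet and other microtubule proteins were lower in HFOB than in HFLN, where 53.5% of all protein-coding rows were. The median ratio of the 9 was 0.514. Tppp3, a tubulin polymerization factor, was the most abundant member of all 47, at 57.8 FPKM in HFOB (7.42 to 108), 98.2 in HFLN (3.71 to 193) and 74.3 in control (20.6 to 128), and its wide intervals overlapped. Riiad1 had the widest difference of the class, at 5.84 FPKM in HFOB (0 to 12.3), 15.8 in HFLN (0 to 35.5) and 8.67 in control (0.1 to 17.2). Pifo, needed for ciliary disassembly in mice, stood at 3.90 in HFOB, 10.2 in HFLN and 6.56 in control. Cfap126, which positions basal bodies, stood at 16.3 in HFOB, 31.8 in HFLN and 22.6 in control, and Fam183b at 24.8 in HFOB, 46.1 in HFLN and 32.6 in control. The inner doublet genes Enkur and Cfap52 had ratios of 0.488 and 0.437, and Cfap53, which is also known for left-right patterning, 0.639. Mns1, of the same inner group, differed least, at 11.4 FPKM in HFOB (3.38 to 19.4), 14.6 in HFLN (4.79 to 24.4) and 9.83 in control (3.00 to 16.7), and 52.99% of its exon bases are shared with Tex9 on the other strand.

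The remaining 8 ciliated-cell genes included the 2 lowest log2 folds of all members. Tmem212 stood at 10.9 FPKM in HFOB (2.58 to 19.2), 29.4 in HFLN (13.5 to 45.3) and 20.4 in control (8.70 to 32.1), the sixth-lowest log2 fold of all protein-coding rows at -1.36. Sec14l3, of the SEC14 lipid-transfer family, stood at 4.35 FPKM in HFOB (1.83 to 6.86), 12.6 in HFLN (6.34 to 18.9) and 5.06 in control (2.45 to 7.66). For Sec14l3 the HFOB and control values lay close together below HFLN, whereas for Tmem212 control lay midway between them. Sntn, which encodes sentan of the ciliary tip, stood at 3.79 FPKM in HFOB (0.421 to 7.17), 10.3 in HFLN (4.16 to 16.5) and 6.45 in control (2.47 to 10.4). Cfap65, known from sperm flagella, stood at 6.60 in HFOB, 14.9 in HFLN and 8.85 in control, and Ak7, an adenylate kinase of the axoneme, at 4.91 in HFOB, 9.98 in HFLN and 6.11 in control. Ccdc113 had a ratio of 0.517 and Cfap44 of 0.481, and Cfap43, which pairs with Cfap44 in the tether of an inner arm, had the narrowest difference of the class at 2.94 FPKM in HFOB (0.884 to 5.00), 5.17 in HFLN (1.51 to 8.84) and 3.46 in control (1.3 to 5.61).

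The 8 members closest to equal levels in HFOB and HFLN, picked after their values were seen, were Rfx3, Dnah2, Rsph9, Rfx2, Ccno, Mns1, Tekt2 and Ccdc39, with ratios from 0.691 to 1.22. Exon bases shared with another annotated gene were found for 16 members, with ratios near 1 and well below it. Mns1, Tekt2 and Ccdc39 share from 16.9% to 52.99% of theirs with a gene on the other strand, and Dnah2 shares 2.08%. Zmynd10 shares 10.1%, Riiad1 9.10%, Cfap52 8.36% and Dnali1 2.02%, and their ratios were 0.435, 0.371, 0.437 and 0.408. Whether the authors counted by strand is not stated in the labels. Without the members that share exons, an alternative chosen after seeing the data, 30 members were left above the limit, with a median log2 fold of -0.91 in HFOB against HFLN and 10 of them at least 2-fold lower.

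HFLN and control mice differed in diet, and HFLN mice were also those that were lean after the high-fat diet. Diet and this sorting by outcome cannot be told apart in this comparison. Of the 47 genes, 44 had a higher FPKM in HFLN, where 51% of all protein-coding rows did and 49% were lower. The median log2 fold was 0.51 beside 0.00 over all rows. Of the 44 members held to the same 1 FPKM limit as all rows, 42 were higher in HFLN (median 0.53). Sec14l3 was the 1 member at least 2-fold higher, at 12.6 FPKM in HFLN against 5.06 in control, where 0.0658% of all rows were; it was also the 1 member with each value outside the other interval, where 0.132% were. No member was 2-fold lower in HFLN, where 0.468% of all rows were, or 2-fold different with separate intervals, where 0.0146% were higher and 0.0804% lower. Next by plain ratio came Drc1, at 4.44 FPKM in HFLN and 2.18 in control, a ratio of 2.04, and Ccdc153, at 55.6 in HFLN and 29.4 in control. Lower in HFLN were Dnah2, at 12.4 FPKM against 15.7 in control, Ccno, at 13.3 against 15.0 in control, and Mcidas, at 0.0652 against 0.117 in control.

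HFOB and control mice differed in diet too, and HFOB mice were also obese, so diet and obesity cannot be told apart in this comparison. Of the 47 genes, 42 had a lower FPKM in HFOB, where 53.4% of all rows did and 46.6% were higher. The median log2 fold was -0.28 beside -0.01 over all rows. Of the 44 members held to the same 1 FPKM limit as all rows, 39 were lower in HFOB (median -0.29). No member was at least 2-fold lower, where 0.395% of all rows were, or higher, where 0.0731% were. None had separate intervals past that fold, where 0.168% of all rows were lower and 0.00731% higher, and none had each value outside the other interval, where 0.548% were lower and 0.0585% higher. Tmem212 had the lowest log2 fold, -0.85, at 10.9 FPKM in HFOB against 20.4 in control, followed by Sntn, at 3.79 in HFOB against 6.45 in control, and Pifo, at 3.90 in HFOB against 6.56 in control. The 5 genes higher in HFOB were Rfx2, Rfx3, Ccno, Drc1 and Mns1, with ratios from 1.08 to 1.20. Both comparisons with control use the same 3 control mice, and each shares 3 mice with the comparison of HFOB and HFLN, so the 3 comparisons are not independent.

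**Figure D3:**
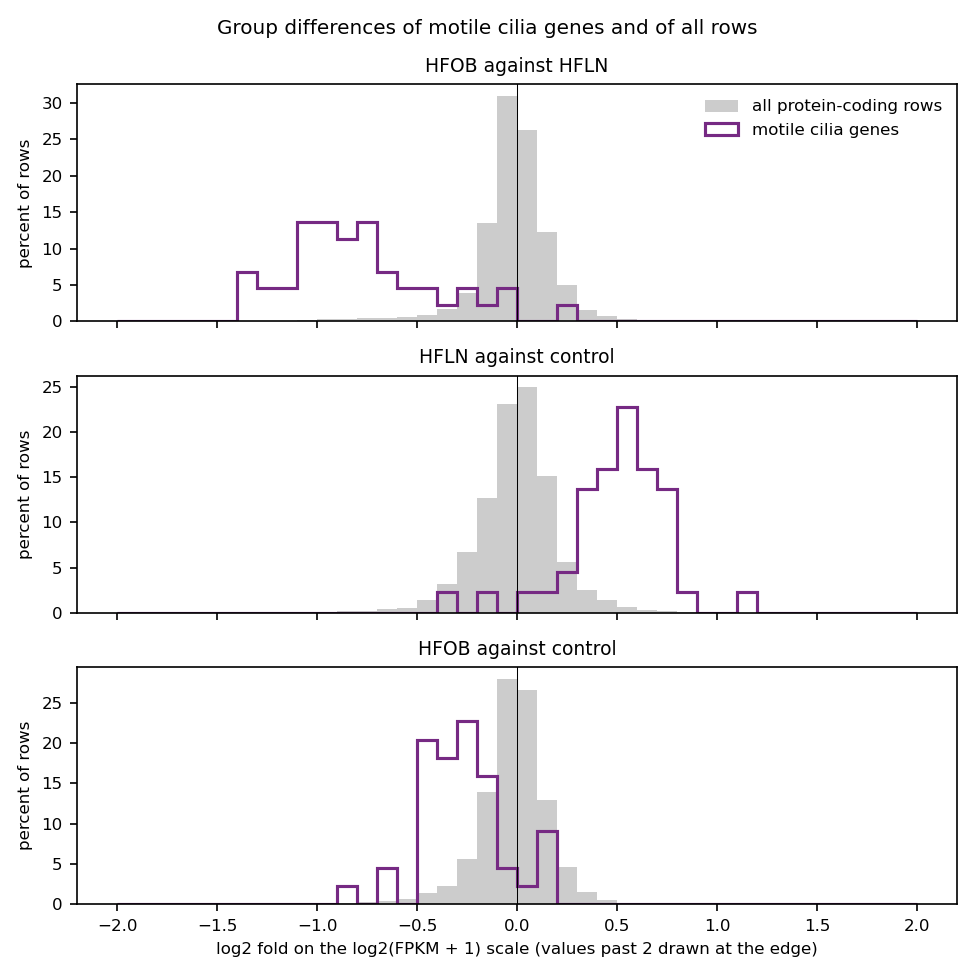
Distribution of log2 folds on the log2(FPKM + 1) scale for the 44 motile cilia genes (purple outline) and for all 13675 protein-coding rows of at least 1 FPKM (grey), as percent of rows. The motile cilia genes centre on -0.82 in HFOB against HFLN, 0.53 in HFLN against control and -0.29 in HFOB against control, while all rows centre on -0.01, 0.00 and -0.01.

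Most motile cilia genes outside the 47 differed in the same direction in HFOB against HFLN. The 3 further lists of dynein, spoke and doublet genes name 91 genes, of which 71 were measured at 1 FPKM or more. HFOB was below HFLN for 64 and above it for 7 (median log2 fold -0.56), where 53.5% of all protein-coding rows were lower. These lists too were chosen with earlier results of these data known, so the counts are a description only. On 7 of the 71 rows the gene is merged with a neighbour. Some of the 71, such as Odad2, Cfap58, Armc3 and Wdr38, reached 1 FPKM in HFLN alone. The limit thus favours genes that are higher in HFLN. Of the 71, 3 were at least 2-fold lower in HFOB, where 0.314% of all rows were. Cfap206, a spoke-base gene, stood at 5.12 FPKM in HFOB, 12.0 in HFLN and 6.42 in control. Drc3, a nexin-link gene, stood at 5.19 in HFOB, 12.1 in HFLN and 7.5 in control. The row of Nme9, merged with 1600029I14Rik, stood at 3.88 in HFOB, 9.89 in HFLN and 6.39 in control. Wdr63 and Odad3, of the inner arms and of outer-arm docking, had log2 folds of -0.90 and -0.75, and Spag6l of the central pair -0.86. Dnaaf2, a dynein assembly factor, Cfap46, of the central pair, and Cfap20, which is needed in primary cilia too, stood at log2 folds of 0.00, 0.00 and -0.01. HFLN was also the higher group against control in 58 of the 71, with a median of 0.34, where 51% of all rows were higher. HFOB was the lower group against control in 58, with a median of -0.15, where 53.4% of all rows were lower.

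Genes shared by motile and primary cilia had closer values in HFOB and HFLN. Over all protein-coding rows, 53.5% were lower in HFOB than in HFLN and 46.5% higher. The 23 intraflagellar transport genes, which carry cargo along motile and primary cilia alike, had a median log2 fold of -0.07 in HFOB against HFLN, with 17 lower and 6 higher. Traf3ip1 and Ift74 were the lowest, at -0.36 and -0.25, and the motor gene Kif3a stood at 11.8 FPKM in both HFOB and HFLN and 10.3 in control. For 27 primary cilium and BBSome genes the median was -0.05, with 14 lower and 13 higher; Arl6 stood at -0.33, Bbs1 at -0.23 and Arl13b at 0.01. Of the genes upstream of Foxj1 or active in centriole amplification, 10 reached 1 FPKM, Myb and Trp73 in HFLN alone, and the median was -0.05. Ccdc78, of the deuterosome, stood at 3.48 FPKM in HFOB, 7.13 in HFLN and 5.21 in control, Trp73, a p53-family factor of multiciliated cells, at 0.591 in HFOB, 1.10 in HFLN and 0.667 in control, and Cep152 at 2.65 in HFOB, 2.70 in HFLN and 2.51 in control.

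**Figure D4:**
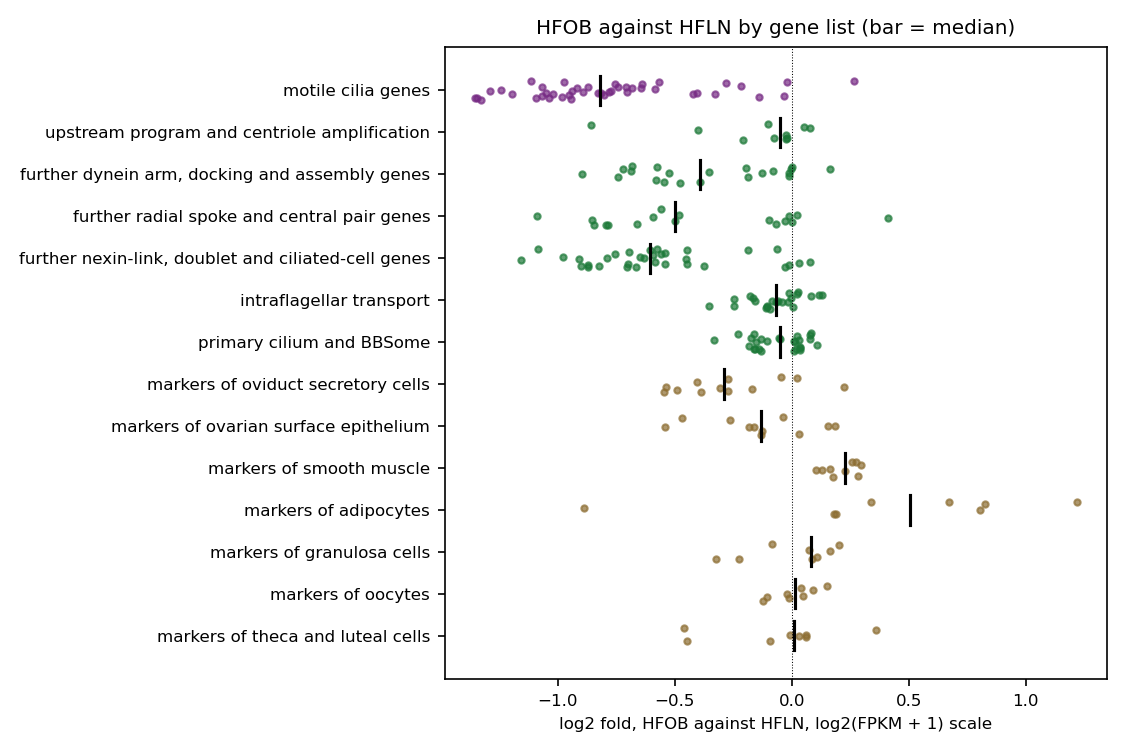
Log2 fold of HFOB against HFLN on the log2(FPKM + 1) scale for each gene of at least 1 FPKM in the motile cilia set, other cilia lists (green) and cell-type marker lists (brown); bars are medians. The motile cilia genes have the lowest median, -0.82, the further motile cilia lists follow at -0.39 to -0.61, and intraflagellar transport, primary cilium, oocyte and theca lists lie near 0.

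Markers of other cell types were read beside the motile cilia genes. Over all protein-coding rows, 53.5% were lower in HFOB than in HFLN and 46.5% higher. Of 12 markers of oviduct secretory cells, HFOB was below HFLN for 10 (median log2 fold -0.29). Their summed level, most of it from Ovgp1, was 529 FPKM in HFOB, 709 in HFLN and 580.6 in control. Although the sum was lower in HFOB than in control, 7 of the 12 markers were higher and 5 lower (median log2 fold 0.10). Of all protein-coding rows, 46.6% were higher in HFOB than in control. Of the 12, Krt7 stood at 32.7 FPKM in HFOB, 48.3 in HFLN and 39.7 in control. Pax8 stood at 4.05 in HFOB, 6.34 in HFLN and 4.35 in control, and Tspan8 at 10.9 in HFOB, 10.7 in HFLN and 8.12 in control. For the ovarian surface epithelium, HFOB was below HFLN for 8 of 11 measured markers of 12 listed (median -0.13), and the sums were 375 FPKM in HFOB, 443 in HFLN and 378 in control; Krt18 and Cdh1 had log2 folds of -0.54 and -0.47 and Upk3b 0.03. HFOB was above HFLN for all 9 smooth muscle markers (median 0.23). They summed to 1500.4 FPKM in HFOB, 1313 in HFLN and 1489 in control. By marker, HFLN was below control for 5 of the 9 and above it for 4, with a median log2 fold of -0.02. Of all protein-coding rows, 49% were lower in HFLN than in control. Des, Synpo2 and Smtn had log2 folds of 0.29, 0.28 and 0.10 in HFOB against HFLN.

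HFOB was above HFLN for 7 of 8 adipocyte markers (median 0.50), where 46.5% of all protein-coding rows were higher. The 8 markers summed to 233 FPKM in HFOB, 158 in HFLN and 155 in control. Lep had a log2 fold of 1.22, Lpl of 0.18 and Cidea of -0.89 in HFOB against HFLN. The 8 granulosa, 8 oocyte and 8 theca and luteal markers had medians of 0.08, 0.01 and 0.01. Granulosa markers summed to 2250.1 FPKM in HFOB, 2107 in HFLN and 2551 in control, oocyte markers to 210.1 in HFOB, 204 in HFLN and 201 in control, and theca and luteal markers to 7324 in HFOB, 7231 in HFLN and 8460.3 in control. Inhba and Cyp19a1 had log2 folds of -0.32 and -0.23 and the merged row of Foxl2 and Faim 0.08, the oocyte genes Gdf9, Bmp15 and Kit 0.15, -0.12 and -0.01, and Lhcgr, Star and Fdx1 -0.46, -0.45 and -0.01. No measured marker of these 7 lists was listed at 0 in any group. The part of these cell types, and of any oviduct tissue left on the ovary, in the motile cilia values was not tested.

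The deposited intervals of the members were wider, relative to the value, than the median over all genes. The upper bound lay a median of 80.8% above the FPKM in HFOB, 68.2% in HFLN and 69.6% in control for the 44 members, against 45.6% in HFOB, 45.1% in HFLN and 46.3% in control for all protein-coding rows. The members were also less abundant, with a median of 3.58 FPKM in HFOB, 7.94 in HFLN and 4.54 in control, against 12.1 in HFOB, 12.2 in HFLN and 12.2 in control for all protein-coding rows. A lower bound of 0 was deposited for 7 of the 44 in HFOB (15.9%), 7 in HFLN (15.9%) and 3 in control (6.82%), against 8.13% of all protein-coding rows in HFOB, 7.23% in HFLN and 8.08% in control. How many of the 3 mice of a group carry a difference cannot be read from these values.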

How the data were processed

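Libraries of ovarian messenger RNA were made with a kit that marks strand, per the labels' protocols. Reads were trimmed, aligned and quantified against mm10; Cuffdiff 2.2.1.3, Cufflinks 2.2.1.0, TopHat2 2.1.0 and Trimmomatic 0.32.3 are listed among the tools, per the submitters' processing notes. The authors deposited 1 FPKM per gene and group, with a lower and an upper bound. The confidence level of the bounds, the annotation, the scaling and the depth are not stated in the labels or headers. Values of single mice were not analysed here, so the linear model planned for such values was not run, and no SD, p-value or test is given.

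Rows were named by RefSeq identifiers, 99.7% of 36886 of which matched RefSeq GRCm38.p6 or GENCODE vM21; coordinates are RefSeq gene spans. Where a gene had several rows (Tekt1, Ccdc40 and Enkur had 2 each), the row of highest mean FPKM was used; no member shared its row with another symbol. Folds were computed on log2(FPKM + 1) with Python 3.11.15, pandas 2.3.3 and numpy 2.4.6, after a test on simulated data. Protein-coding rows with status OK and at least 1 FPKM in any group numbered 13675. Members, lists and motifs were chosen with earlier results of these data known. Values with intervals are given for Foxj1, Mcidas and Ccno and, per class, for the most abundant member and those with the lowest and highest fold in HFOB against HFLN, and others were added as examples; per further list, the 2 widest and the narrowest folds are named. Alternatives changed the pseudocount, the limit, the scaling, the row choice and the members.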

Additional observations from a re-analysis of the deposited data

How the results depend on the processing

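The direction of the 3 medians held under every alternative run, and the count of members past 2-fold with intervals that do not overlap was 0 in all of those that give intervals; summed rows have none. With a pseudocount of 0.1 FPKM the median log2 fold was -1.02 in HFOB against HFLN, with 24 members at least 2-fold lower, and 0.66 in HFLN against control. With no pseudocount these were -1.04, with 27 members, and 0.67, with 2 members at least 2-fold higher. A limit of 5 FPKM left 29 members with a median of -0.97 in HFOB against HFLN. The limit leaves fewer genes, and a smaller pseudocount shrinks low values less. Rescaling by the median or the upper quartile, summing rows, using rows with 1 symbol and leaving out the regulators gave medians from -0.85 to -0.81 in HFOB against HFLN, 0.53 to 0.57 in HFLN against control and -0.31 to -0.25 in HFOB against control. Leaving out members that share exons, chosen after seeing the data, gave -0.91, 0.54 and -0.29 in the same order. Leaving out each mouse was not run. No paired analysis was possible because the columns hold group values without replicate numbers. Depth is unknown, and the deposited intervals are the only measure of spread.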

Other observations

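Among all 13675 protein-coding rows, 43 were at least 2-fold lower in HFOB than in HFLN. Motile cilia genes made up 13 of them, 30.2%, and the further cilia lists 3. Of all 13675 rows, 44 were members. The members were chosen with these values known, so nothing further is read from this share. The other 27 of the 43 rows belong to none of the lists. The widest log2 folds among them were those of Pramel51, at -4.13, and of the row of Igf2bp1 and Mir3063, at -3.08. Socs3, with rows at -1.60 and -1.16, Irf7, at -1.03, and Usp18, at -1.03, were also among the 27. The following were picked after their values were seen and do not stand for the 27. Ssu2 stood at 4.23 FPKM in HFOB, 13.4 in HFLN and 5.17 in control, close to the pattern of Sec14l3, in which HFLN alone was high. Meig1, known from mouse sperm formation, stood at 4.64 in HFOB, 12.4 in HFLN and 4.63 in control, with HFOB and control almost level. Odf3b, an outer dense fibre gene, stood at 8.11 in HFOB, 19.0 in HFLN and 11.8 in control, and 1700024G13Rik at 3.91 in HFOB, 10.5 in HFLN and 7.29 in control. Stoml3, a stomatin-family gene, stood at 0.867 in HFOB, 3.11 in HFLN and 1.73 in control, and Ttc21a, a relative of an intraflagellar transport gene, at 2.54 in HFOB, 6.51 in HFLN and 3.48 in control.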
